A study of Homo sapiens with 4 samples.

Results

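The genes described here are the 8 that encode the replication-independent histone H3.3 and the chaperones that place it on DNA: H3-3A and H3-3B, the HIRA complex genes HIRA, UBN1, UBN2 and CABIN1, and the pair ATRX and DAXX. They were chosen by name, as 8 of 20033 protein-coding genes of RefSeq GRCh38.p14, and every peak from 5 kb before to 5 kb past each gene was taken, which gave 22 of 76313 control peaks and 27 of 97653 siRNA peaks. The data are CUT&Tag profiles of CHAF1A, the large subunit of the replication-coupled H3 chaperone CAF-1, in RBE, an established human line of intrahepatic cholangiocarcinoma. Of 4 samples, 2 were transfected with control siRNA and 2 with siRNA that targets CHAF1A, all with a lipid reagent and all collected 48 hours later. Both groups are the same line, and nothing in the labels says that the samples came from separate cultures. Each group has 1 peak list, and whether that list pools the 2 samples is not stated. No test between the groups could therefore be made, and each comparison below is between these 2 lists and has no replicate check. The level of CHAF1A after knockdown was not analysed here.

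Nucleosomes need new H3 in 2 settings. Behind the replication fork CAF-1 deposits the canonical H3, made in S phase from clustered genes. Outside replication H3.3, made throughout the cell cycle, is deposited instead, by the HIRA complex mainly at active genes and by ATRX with DAXX at telomeres, pericentromeric repeats and silenced retroelements. H3-3A and H3-3B are separate genes for the same protein. In CUT&Tag an antibody directs a transposase to its target, and a peak marks a site where the sequenced fragments pile up. Whether the peaks were called against a library without the CHAF1A antibody is not stated, and peaks were not separated here from open chromatin that the transposase can reach.

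The bases before the start sites of 4 members are shown because their peaks carry the results below, either in 1 list (H3-3B), in both (H3-3A, UBN1) or with unequal enrichment (CABIN1). RefSeq promoters of GRCh38.p14 were matched for 6 of the 8 genes. The 250 bases before the start site are given 5′ to 3′ on the gene's strand, with capitals for every match, on either strand, to 9 motifs. These are the CCAAT box CCAAT, the GC box GGGCGG, the TATA box TATAAA, the cyclic AMP response element TGACGTCA and its relative TGACGCAA. The others are the ETS core GGAAGT, the E-box CACGTG, the NRF1 core TGCGCA and the YY1 motif AAGATGGC.
H3-3B, chr17:75779780-75780029, minus strand: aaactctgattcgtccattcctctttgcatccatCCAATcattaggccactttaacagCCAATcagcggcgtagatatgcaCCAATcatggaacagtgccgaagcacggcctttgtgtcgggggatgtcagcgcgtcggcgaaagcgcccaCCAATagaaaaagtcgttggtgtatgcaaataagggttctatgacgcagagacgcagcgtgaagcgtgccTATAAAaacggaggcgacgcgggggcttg
H3-3A, chr1:226062197-226062446, plus strand: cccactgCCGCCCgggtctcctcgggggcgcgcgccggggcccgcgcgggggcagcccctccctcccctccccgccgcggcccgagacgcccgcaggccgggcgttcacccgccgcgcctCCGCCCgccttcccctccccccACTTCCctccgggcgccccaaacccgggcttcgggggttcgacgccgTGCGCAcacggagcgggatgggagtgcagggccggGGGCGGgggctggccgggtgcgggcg
UBN1, chr16:4847231-4847480, plus strand: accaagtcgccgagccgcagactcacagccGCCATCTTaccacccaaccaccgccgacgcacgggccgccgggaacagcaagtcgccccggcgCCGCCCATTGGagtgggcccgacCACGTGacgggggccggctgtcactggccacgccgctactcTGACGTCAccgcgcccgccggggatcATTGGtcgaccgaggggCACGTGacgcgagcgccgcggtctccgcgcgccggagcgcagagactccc
CABIN1, chr22:24011120-24011369, plus strand: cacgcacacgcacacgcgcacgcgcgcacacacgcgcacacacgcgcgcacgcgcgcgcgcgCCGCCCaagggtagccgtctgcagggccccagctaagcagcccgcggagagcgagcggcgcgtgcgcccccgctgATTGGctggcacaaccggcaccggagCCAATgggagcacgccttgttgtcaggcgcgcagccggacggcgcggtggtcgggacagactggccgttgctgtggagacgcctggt

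The promoter of H3-3B stood apart in these letters from the other H3.3 gene. It held 4 CCAAT boxes, at 216, 192, 169 and 99 bases before the start site, and a TATA box at 29 bases before it. The CCAAT box occurs at least once in 32.0% of the 35116 promoter entries of the table, 4 or more times in 0.874%, and together with a TATA box in 3.81%. H3-3A has 4 entries, none with a TATA box, which 10.7% of all entries hold. The entry printed, which holds the summit of the control peak, had 3 GC boxes, 83.2% G and C and 38 CG dinucleotides, against 52.4% and 20 in H3-3B and a median of 11 CG dinucleotides over all entries. The entry that starts at 226062716 had 6 GC boxes, of which a pair overlaps by 1 base, and 1 CCAAT box. The GC box occurs in 42.6% of entries. UBN1 has 2 entries. The one printed had 2 CCAAT boxes, 1 of them next to a GC box, and 2 E-boxes, which 6.34% of entries hold. It also had 1 cyclic AMP response element and 1 YY1 motif, found in 1.65% and 1.36% of entries. The other, which starts at 4848380, had 1 GC box and 1 ETS core, and no base of it was under a peak. CABIN1 had 2 CCAAT boxes and 1 GC box. HIRA had 4 GC boxes and 1 ETS core. UBN2 had 1 ETS core and 1 NRF1 core, motifs found in 19.5% and 6.89% of entries. The relative of the cyclic AMP response element, in 0.478% of all entries, was in none of those of the members. These matches describe letters only and show no binding.

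Most of the 8 genes carried a peak at the start of the gene in both lists, and 2 did so in 1 list only. Within 1 kb of the 5′ end, 7 genes had a peak in the control list and 7 in the siRNA list, 6 of them in both. The background is 57.7% of all protein-coding genes with a control peak, 60.4% with a siRNA peak and 53.0% with both. H3-3B had a peak in the control list only, as 4.7% of all genes did, and ATRX in the siRNA list only, as 7.38% did. For ATRX and DAXX the strand was not used here, and a peak at either gene boundary was counted, as for every other gene without one. Among the 6 members with a strand, 6 had a control peak, 5 a siRNA peak and 5 a peak in both lists, against 58.7%, 61.2% and 54.2% of the 15841 genes of that kind. The 1 with a control peak alone compares with 4.45% of them, and 0 had a siRNA peak alone, against 7.0%. In the whole window 7 members had a control peak and all 8 a siRNA peak, against 82.3% and 85.0% of protein-coding genes.

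**Figure D1:**
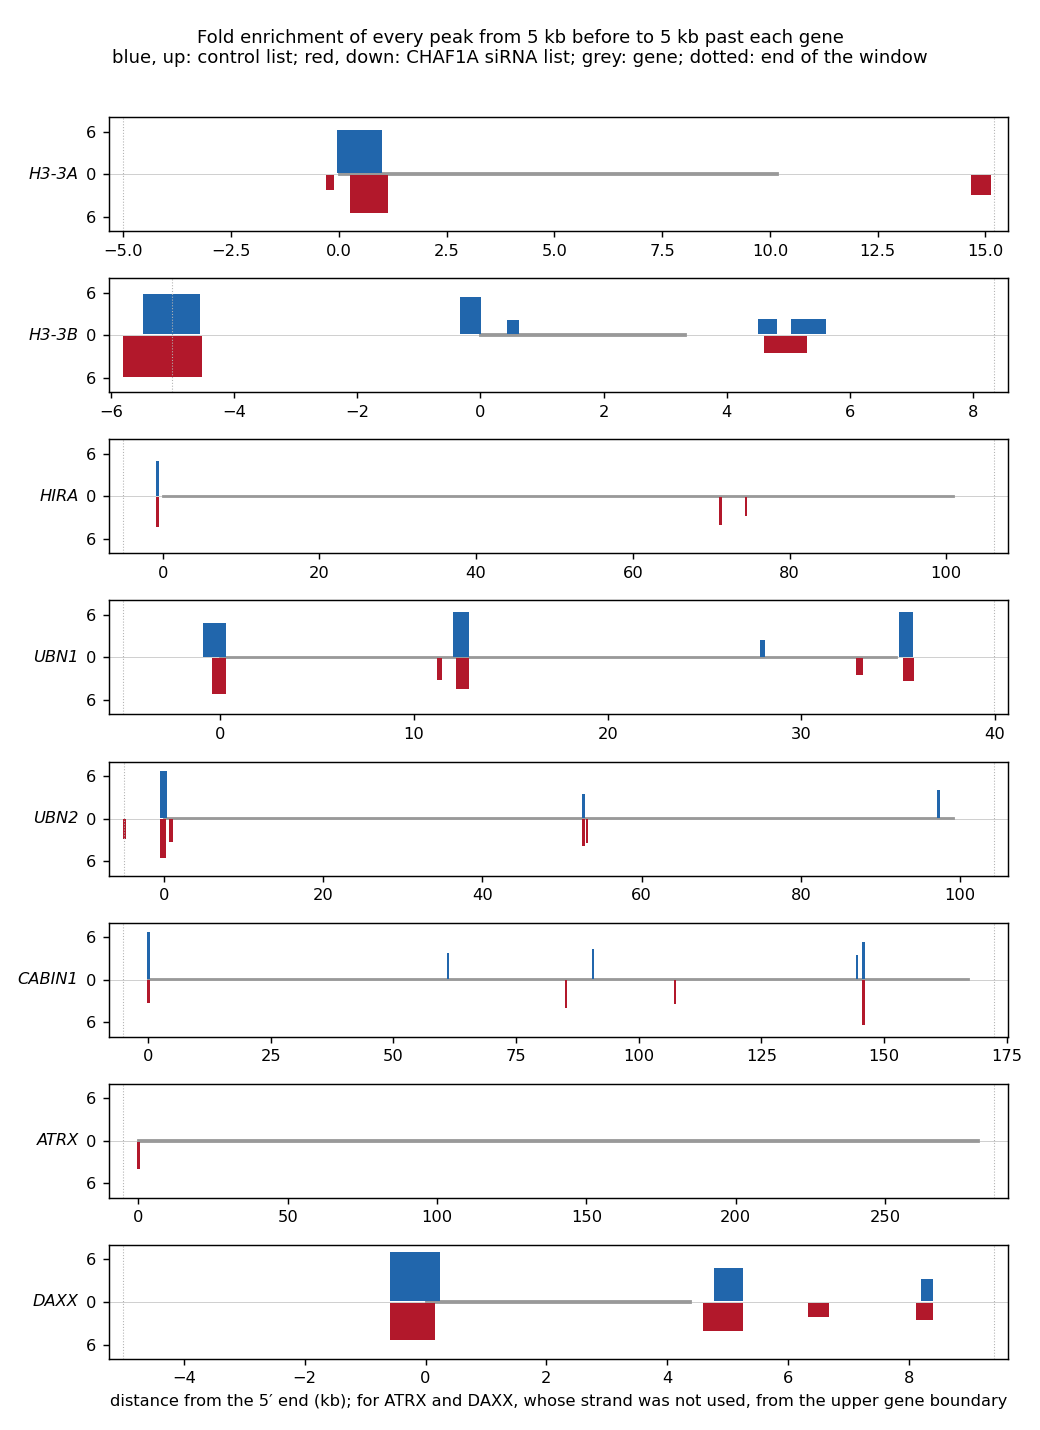
Peaks of both lists along the 8 genes. The x axis is the distance from the 5′ end in kb (for ATRX and DAXX from the upper gene boundary), the y axis the deposited fold enrichment as a linear ratio, upward for the control list in blue and downward for the CHAF1A siRNA list in red, and narrow peaks are widened to be visible. H3-3B has its start peak in blue only, with a fold enrichment of 5.28, and ATRX has a single red peak of 3.90.

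The values of each peak are those the authors' caller gave. Fold enrichment is the pileup of reads at the summit over its local background, as a linear ratio, and −log10 q is the strength of the call. The pileup and background were solved from fold and p. The commonest background was 6.34 reads in the control list and 8.49 in the siRNA list, which is 1.34 times as high. At those backgrounds the lowest fold past the threshold was 2.86 for control and 2.53 for siRNA peaks. The median fold enrichment was 3.72 over all control and 3.19 over all siRNA peaks. Of the cell type markers, 5 of 6 cholangiocyte markers (KRT7, KRT19, EPCAM, SOX9 and SPP1, not CFTR) had a control peak at the 5′ end and 3 a siRNA peak, beside the 57.7% and 60.4% of all genes given above. Of hepatocyte markers 1 of 5 had one in each list, of fibroblast markers 1 of 4, of endothelial markers 1 and 2 of 4, and of immune markers 0 and 1 of 4. A peak is no measure of expression, so these counts do not settle the cell type.

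H3-3B (chromosome 17, 75776434 to 75779779, minus strand) had its start peak in the control list only, while its flanking sites had peaks in both lists. The control peak at the start spanned 75779767 to 75780109, 343 bp that take in the whole sequence printed above. Its summit lay 175 bp upstream of the start site, with a fold enrichment of 5.28, a −log10 q of 63.2 and a pileup of 170 reads over a background of 31.4. It was stronger than 93.3% of all control peaks, but among genes with a 5′ end control peak it stood at a percentile of 75.6 by −log10 q. The siRNA list had no peak within 1 kb of the start site, and its nearest peak began 4189 bp beyond the control peak. A second, weak control peak inside the gene (75779159 to 75779342, 60 reads over 28.1, −log10 q 5.00) also had no siRNA counterpart.

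The neighbouring sites of H3-3B show what the siRNA list did contain. Upstream, at the microRNA gene MIR4738, the control peak at 75784334 to 75785254 had 169 reads over 28.8, a 5.71-fold enrichment. In the siRNA list the site (75784298 to 75785587) had 186 reads over 32.0, a 5.67-fold enrichment. Past the 3′ end 2 weak control peaks, with folds of 2.24 and 2.11, were both overlapped by 1 siRNA peak of 2.38 (75774478 to 75775169). In the control list, then, the start of H3-3B and the upstream site had almost the same pileup, and in the siRNA list only the upstream site was called. A list gives no value where it has no peak. At the backgrounds recovered at those 2 siRNA peaks, 36.8 and 32.0 reads, a summit needs 65 and 59 reads to pass the authors' threshold, or folds of 1.75 and 1.82. If the start of H3-3B had a background in that range, its siRNA pileup was below these values, or the site was not called for another reason, which was not tested. Of the 1976 control peaks at a 5′ end with a −log10 q of at least that of H3-3B, 5 (0.253%) had no overlapping siRNA peak, H3-3B among them. That set was chosen by control strength, with the cutoff at H3-3B itself, and the reverse count for siRNA peaks was not made. The share is therefore a description and no test of H3-3B. With 1 list per group, the difference has no replicate error.

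H3-3A (chromosome 1, 226061831 to 226072019, plus strand), the other H3.3 gene, had its start peak in both lists. The control peak spanned 226061791 to 226062824, with a summit 578 bp past the gene's first start site, a fold enrichment of 6.09, a −log10 q of 44.6 and 104 reads over 16.2. In the siRNA list it ran from 226062095 to 226062966, with 114 reads over 20.6, 5.33-fold enrichment and a −log10 q of 42.9. The 2 peaks shared 730 bp and their summits lay 137 bp apart. The control peak covers all 250 bases of 3 of the 4 promoter entries of H3-3A, and the siRNA peak those of the entries that start at 226062447 and 226062716. The site lies nearer to the 5′ end of H3-3A-DT, a divergent long noncoding RNA, than to the first start site of H3-3A, at 86 bp from the control and 51 bp from the siRNA summit. Signal of the 2 transcripts cannot be told apart there. The siRNA list had 2 further weak peaks, 1 just upstream (226061538 to 226061727, fold enrichment 2.14), 64 bp from the control peak, and 1 past the 3′ end (226076507 to 226076967, 2.73).

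**Figure D2:**
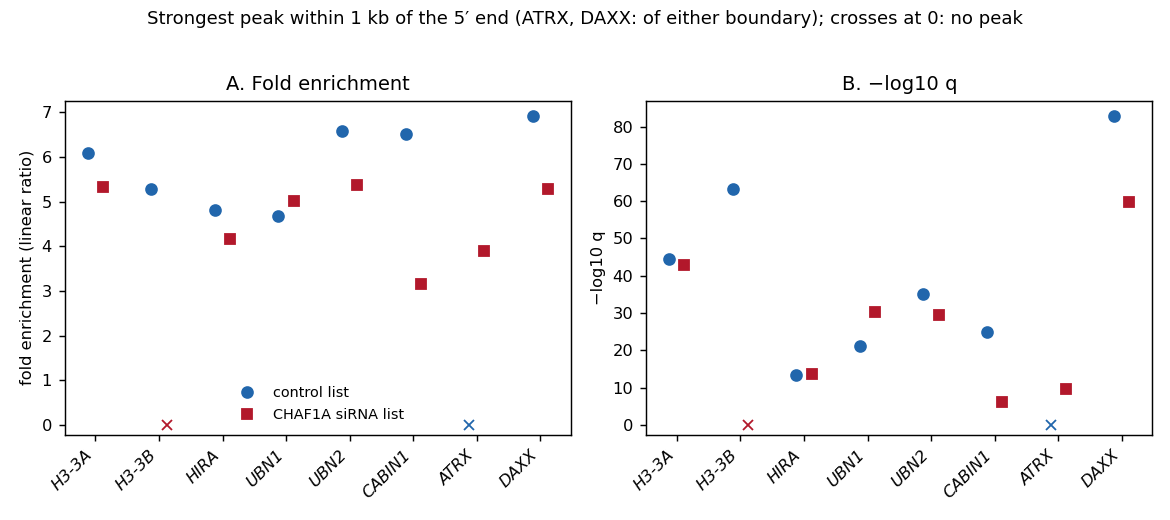
Strongest peak within 1 kb of the 5′ end (ATRX and DAXX: of either boundary) for each gene, as fold enrichment (A, linear ratio) and as −log10 q (B), blue circles for the control list and red squares for the CHAF1A siRNA list; a cross at 0 marks a list with no peak there. H3-3B and ATRX have a value in 1 list each, and CABIN1 goes from 6.51 to 3.16 in fold enrichment.

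The HIRA complex genes all had start peaks in both lists, and none ranked as high as the start of DAXX. HIRA (chromosome 22, 19330698 to 19431733, minus strand) encodes the WD-repeat chaperone subunit. Its peak had 38 reads over 7.11 in the control list (19432241 to 19432526, fold enrichment 4.81, −log10 q 13.4) and 47 over 10.5 in the siRNA list (19432198 to 19432615, 4.17, 13.8). Among genes with a 5′ end peak these stood at percentiles of 23.7 and 29.5 by −log10 q. The summits lay 666 and 599 bp upstream of HIRA and 146 and 213 bp from the 5′ end of MRPL40, a mitochondrial ribosomal protein gene on the other strand. No base of the 250 before the HIRA start site was under a peak in either list. The body of HIRA, 101 kb long, held no control peak. In the siRNA list it held 2, both without a control counterpart, with folds of 3.90 (19360423 to 19360619) and 2.61 (19357200 to 19357401). The weaker one was close to the authors' threshold, with 26 reads where 25 were needed and a −log10 q of 3.67.

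UBN1 (chromosome 16, 4847481 to 4882401, plus strand) and UBN2 (chromosome 7, 139231237 to 139330428, plus strand) encode the ubinucleins, the subunits through which the complex recognises H3.3. The UBN1 start peak went from 64 reads over 12.9 (4846610 to 4847756, fold enrichment 4.67, −log10 q 21.3) to 85 over 16.1 (4847036 to 4847778, 5.02, 30.3), with summits 6 bp apart. UBN1 was thus the 1 member with a peak at the start in both lists whose fold was higher in the siRNA list. Its summits lay between UBN1 and the divergent gene GLYR1, 46 and 52 bp from the 5′ end of GLYR1. The UBN2 start peak had 76 reads over 10.7 in the control list (139230750 to 139231635, 6.57, 35.2) and 77 over 13.5 in the siRNA list (139230782 to 139231509, 5.36, 29.4). A second siRNA peak, 829 bp into UBN2 (139231896 to 139232382, 3.20), had no control counterpart.

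Inside UBN1 a strong site lay 12.3 kb from the start. There the control peak (4859479 to 4860318) had 76 reads over 11.2 and was 6.30-fold enriched. In the siRNA list it (4859665 to 4860309) had 69 over 15.5 and was 4.24-fold enriched. At the far end of UBN1 the lists differed more. The control peak past the 3′ end (4882501 to 4883217) had 110 reads over 16.7, a fold of 6.29 and a −log10 q of 48.4, and the siRNA peak (4882745 to 4883304), with its summit at the same base, 71 over 22.0, 3.13 and 13.7. This summit lies 300 bp from the near boundary of PPL, which encodes the junction protein periplakin. UBN2 had 1 shared internal site, 52.6 kb from the start, with folds of 3.27 and 3.79, a control-only peak 97.3 kb from the start (139328373 to 139328655, 3.88) and a siRNA-only peak beside the shared site (139284271 to 139284477, 3.37). One more siRNA-only peak lay upstream of UBN2 (139226148 to 139226383, 2.79). The unshared peaks inside UBN1 were 1 of the control list (4875350 to 4875595, 2.39) and 2 of the siRNA list (4858654 to 4858908, 3.04, and 4880325 to 4880646, 2.36).

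CABIN1 (chromosome 22, 24011304 to 24178628, plus strand) encodes the calcineurin-binding subunit of the HIRA complex. Its start peak was much weaker in the siRNA list. The control peak (24011269 to 24011606) had 53 reads over 7.29, a fold of 6.51 and a −log10 q of 24.9. The siRNA peak (24011190 to 24011684) had 31 reads over 9.14, a fold of 3.16 and a −log10 q of 6.17. At a second shared site deep in the gene, 146 kb from the start, the order was the other way, with 58 reads over 10.4 and a fold of 5.20 for the control peak (24157000 to 24157193) and 96 over 14.4 and 6.30 for the siRNA peak (24156893 to 24157386). By −log10 q that internal site was the strongest of the gene in the siRNA list (42.5), and the start was in the control list. CABIN1 also had 3 control peaks and 2 siRNA peaks without a counterpart, all inside the gene, with folds of 3.35 to 4.22 and of 3.25 and 3.80.

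DAXX (chromosome 6, 33318558 to 33322959), the H3.3-binding chaperone of the pair, had the strongest start peak of the 8 genes in the control list by −log10 q. At its upper boundary the control peak (33322723 to 33323539) had 175 reads over 24.4, a fold of 6.92 and a −log10 q of 82.8, and the siRNA peak (33322798 to 33323551) 161 over 29.7, 5.27 and 59.8. The noncoding gene LOC124901303 begins or ends 399 bp from the control summit. At the lower boundary the peaks (33317699 to 33318191 and 33317707 to 33318360) had folds of 4.65 and 4.01 with summits at the same base, 76 bp from the 5′ end of ZBTB22, a zinc finger gene. One more shared site, with folds of 3.12 and 2.37, lay 594 and 538 bp from the 5′ end of TAPBP, the tapasin gene of antigen presentation. The siRNA list had 1 more peak in the window (33316285 to 33316622, 1.95). Local backgrounds at DAXX and H3-3B were high in both lists. Their medians were 37.1 and 28.8 reads in the control list, 5.85 and 4.54 times the commonest background, and 49.5 and 34.4 reads for siRNA peaks, 5.82 and 4.05 times it. At the other members with a peak these ratios were between 1.00 and 2.56. The part of copy number or of dense signal nearby in these backgrounds was not tested.

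ATRX (chromosome X, 77504880 to 77786216), the remodelling ATPase that works with DAXX, had no control peak in its 291 kb window. In the siRNA list it had 1, at 77785886 to 77786294, 146 bp inside the upper gene boundary, with 36 reads over 8.49, a fold of 3.90 and a −log10 q of 9.76. These are the same values as at the internal HIRA site named above, since both summits had 36 reads over the commonest background. The ATRX peak was stronger than 58.9% of siRNA peaks but than only 18.5% of the strongest 5′ end peaks of genes that had one. Its pileup and background were also multiplied by 0.747, the commonest control background over the commonest siRNA background. The −log10 p of the ATRX peak was then 9.60, past the threshold of 5. This scaling does not measure depth and makes no allowance for the sampling of reads. The part of depth in the missing control peak was not tested. Genes as long as ATRX seldom had no peak: 8.26% of 860 had no control peak and 7.33% no siRNA peak. On chromosome X this was 34.2% and 26.3% of 38 such genes, and 37.9% and 39.7% of the 848 protein-coding genes of chromosome X had a 5′ end peak, fewer than of all genes. The part of chromosome X in the missing control peak was not tested.

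**Figure D3:**
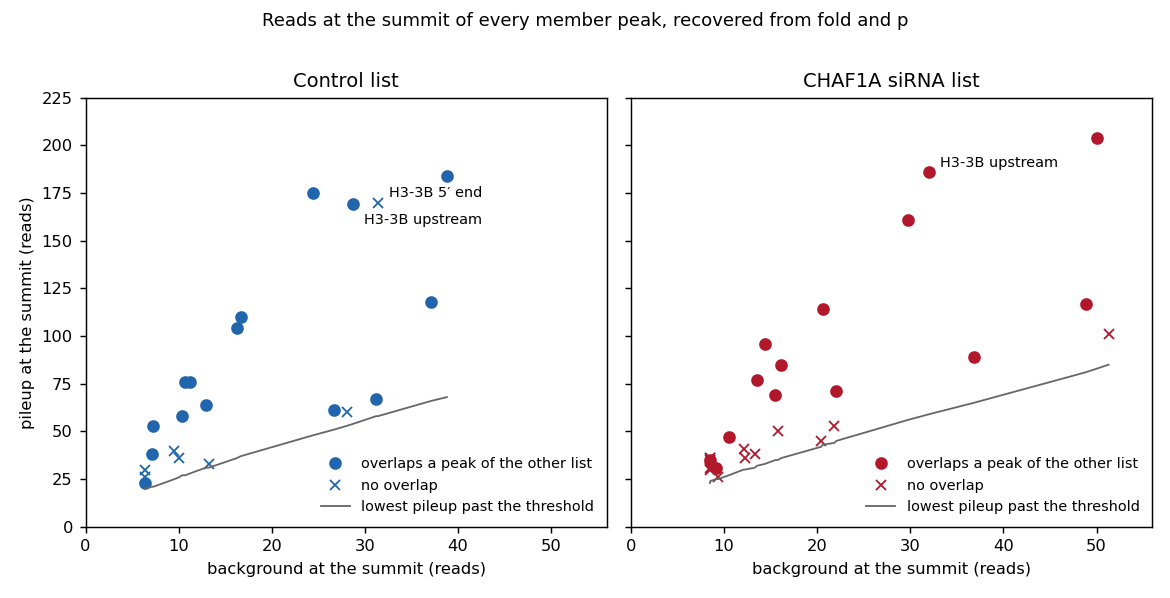
Pileup against local background at the summit of each member peak, both in reads recovered from the deposited fold and p, for the control list (left, blue) and the CHAF1A siRNA list (right, red); dots overlap a peak of the other list, crosses do not, and the grey line is the lowest pileup past the authors' threshold at the backgrounds of these peaks. The control start peak of H3-3B, at 170 reads over 31.4, is the cross that lies far above the line, beside the upstream dot at 169 reads, and the siRNA crosses lie near the line.

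Sharing between the lists followed the strength of the peaks, at these genes as in the whole lists. Of the 22 control peaks 15 (68.2%, 95% exact binomial interval 45.1 to 86.1, counting error only) overlapped a siRNA peak by at least 1 bp, against 61.9% of all control peaks. Of the 27 siRNA peaks 14 (51.9%, 31.9 to 71.3) overlapped a control peak, against 47.5% of all. Both shares are near the background and say nothing particular to these genes. The median −log10 q of shared and unshared member peaks was 24.9 and 7.80 for control and 24.9 and 6.86 for siRNA peaks. Over the whole lists it was 14.1 and 6.78, and 13.7 and 6.59. All 13 unshared siRNA peaks, that of ATRX included, had a −log10 q under 10. Of the 7 unshared control peaks 5 did, the others being the start of H3-3B at 63.2 and the far end of UBN2 at 10.8. Over the whole lists, shared or not, only 38805 of 97653 siRNA and 37115 of 76313 control peaks reached 10. The share among all unshared peaks was not computed. By position, 7 of 9 control peaks at a start or boundary were shared, 3 of 8 inside a gene and 5 of 5 elsewhere in the windows. In the siRNA list these counts were 7 of 10, 3 of 10 and 4 of 7. The shares of all peaks by position were not computed, so these counts show nothing particular to these genes.

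Where both lists had a peak, the folds at these genes moved as those of other peaks did, with CABIN1 and the far end of UBN1 at the low edge. Over the 15 pairs the siRNA fold was 0.867 times the control fold in the median, from 0.485 to 1.21, and lower in 10 of 15. Over all 47221 pairs the median was 0.892, with 5% below 0.607 and 5% above 1.25, and the siRNA fold was lower in 72.1%. The start of CABIN1 had a ratio of 0.485, with 0.811% of all pairs lower, and the UBN1 site next to PPL 0.497, with 1.03% lower. At both the background rose about as it did elsewhere (1.25 and 1.32 times, against a median of 1.34 over all pairs), while the pileup was lower in the siRNA list. The internal site of CABIN1 had the highest ratio, 1.21, with 93.4% of all pairs lower. No pair was tested.

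**Figure D4:**
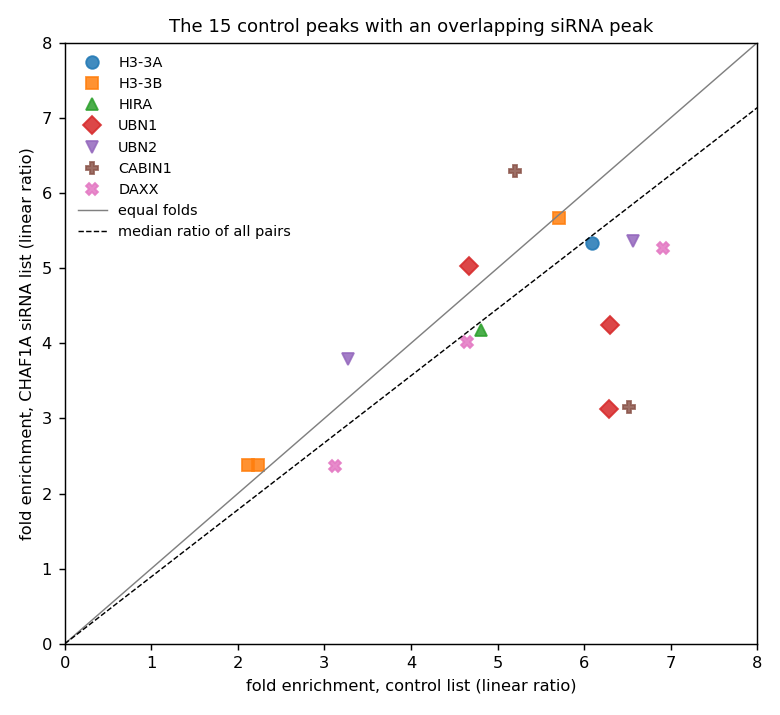
Fold enrichment (linear ratio) in the control list on the x axis and in the CHAF1A siRNA list on the y axis for the 15 control peaks with an overlapping siRNA peak, 1 symbol per gene; the grey line marks equal folds and the dashed line the median ratio of all pairs, 0.892. The lowest 2 points relative to the lines are the start of CABIN1 (6.51 and 3.16) and the far end of UBN1 (6.29 and 3.13).

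Several of these starts are shared with a neighbour. Of the 6 members with a strand, 3 (H3-3A, HIRA and UBN1) had the 5′ end of another gene within 1 kb, against 26.0% of protein-coding genes with a strand. In those 3 the summits of the strongest start peaks of both lists lay nearer to the neighbour than to the outermost start of the member. Against all start sites of H3-3A this does not hold for its control summit, which lies nearer to the one at 226062447 than to H3-3A-DT. Peaks deep inside HIRA, UBN2 and CABIN1 lay nearer to RN7SL168P, RNU6-206P and SUSD2 than to the member's start, all at over 5 kb, and 1 upstream of UBN2 lay 1126 bp from RPL37AP5. The members also differed in density, from no control peak in ATRX and 0.0901 per 10 kb in HIRA to 3.75 per 10 kb in H3-3B. The median of protein-coding gene windows was 0.480 control and 0.614 siRNA peaks per 10 kb. In both lists H3-3A, H3-3B, UBN1 and DAXX lay above it, and the 4 longest genes, HIRA, UBN2, CABIN1 and ATRX, below it.

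Other genes of H3 deposition, which supply histones to the H3.3 chaperones or work beside them, gave the same set in both lists. Of 21 such genes 16 had a 5′ end peak in both lists, 5 in neither and 0 in 1 list only, against 53.0% of all genes in both. Over all genes, 4.7% had a control peak without a siRNA peak there, and 7.38% the reverse. At such low shares few of 21 genes would differ between the lists, so the 0 shows nothing particular to these genes. The share of all genes with a peak in neither list was not computed. By −log10 q, not by fold, the strongest control peaks were at CHAF1A itself (fold enrichment 14.0 and 12.5 in the control and siRNA lists), at ASF1B (7.55 and 6.15), which passes new H3 to deposition chaperones, at MORC3 (11.4 and 8.02), a nuclear ATPase, and at CBX5 (8.23 and 5.71), the heterochromatin protein HP1 alpha. Their −log10 q in the control and siRNA lists was 551 and 744 at CHAF1A, 150 and 88.5 at ASF1B, 139 and 74.8 at MORC3, and 134 and 76.0 at CBX5. ASF1A, the paralog bound by HIRA, had 7.54 and 5.19, and PML, the scaffold of the nuclear bodies where DAXX gathers, 6.50 and 5.98. The genes with a peak in neither list were SP100, ZMYND11 and the variant H3 genes H3-4, H3-5 and H3-7. No member had a control start peak as strong as any of the 4 leading genes of this list, whose lowest −log10 q was 134 against 82.8 at DAXX. Those 4 were picked as the strongest of the 21, so this order follows largely from the choice. The weakest of the 16 with a peak, DEK, had a control −log10 q of 8.92.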

How the data were processed

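CUT&Tag of CHAF1A was analysed from 2 deposited peak lists, 1 per group, 1 with NC in its name, read as the control siRNA group, and 1 with si, read as the CHAF1A siRNA group. Neither name is a sample title. The submitters' processing notes name fastp 0.20.1, Bowtie2 2.2.5, MACS2 2.1.2, deepTools 3.4.3 and the build hg38. The sources used here do not say whether samples were pooled or a control library was used. The fold enrichment deposited for a peak is a linear ratio, and its p-value and q-value are deposited as −log10 values. The deposited score is a whole number, 10 times −log10 p, and was not used. The lowest −log10 p was 5.00 in both lists.

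Peaks outside the assembled chromosomes, 868 control and 886 siRNA, were left out. Positions are printed counting from 1. Gene positions came from RefSeq GRCh38.p14, and strand and promoter bases from its promoter table. Pileup and background were solved from fold, (pileup + 1)/(background + 1), and the Poisson tail p, which worked for 99.1% of control and 99.2% of siRNA peaks. Of these, 99.99% gave whole pileups within 0.02 reads. The solver and the overlaps were tested on simulated data. Exon and intron annotation was not used here. The members, the gene lists and the motifs were chosen with earlier results of these data known. Named outside the members were the 4 genes of the deposition list strongest by control −log10 q, and any of its genes with a peak in 1 list only. Neighbours whose 5′ ends lay nearer to a peak were named too. ASF1A, PML, LOC124901303 and the 5 genes with a peak in neither list were added after their values were seen. Planned protein comparisons were not made, and 1 planned marker gene is not reported here. Tools were scipy 1.17.1, numpy 2.4.6, matplotlib 3.10.9, pandas 2.3.3 and Python 3.11.15.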

Additional observations from a re-analysis of the deposited data

How the results depend on the processing

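With a −log10 q of at least 10 in both lists, the 8 genes kept 14 control and 12 siRNA peaks. The whole lists kept 37115 of 76313 control and 38805 of 97653 siRNA peaks. Of the siRNA peaks of the 8 genes 91.7% overlapped a control peak, and the siRNA peaks at the starts of CABIN1 and ATRX were no longer counted. The other 33 of 36 summary values stayed within the limits set, the 78.6% of control peaks shared at this cutoff among them. So did 78 of 80 calls of single genes. Whole-list shares of overlap at this cutoff were not computed. The limits were 1.5 times for counts, the 95% interval for shares, and the same call for single genes. The other settings were equally long lists, a −log10 q of at least 5, siRNA summits scaled to the control background, windows of 1 and 10 kb, 50% reciprocal overlap and 3 kb around the 5′ end. Of these only the wider window of 3 kb could add a peak at a 5′ end. With it H3-3B still had no siRNA peak and ATRX no control peak there. Equally long lists and scaled siRNA summits leave the control list as it was, so its peak numbers and calls could not change in them. The 95% interval is also wide for so few peaks, so the numbers that stayed within the limits are no measure of robustness. No paired analysis was possible because each group has 1 list, which carries no replicate number. For the same reason no sample could be left out. Scaled to the control background, 25 of the 27 siRNA peaks, and 11 of the 13 unshared ones, stayed past the threshold. Of all siRNA peaks 93314 of 97653 did, so this is nothing particular to these genes. The member peaks that fell below it were the siRNA peak just upstream of H3-3A (scaled −log10 p 4.83) and the 2.61-fold peak inside HIRA (4.56).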

Other observations

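RefSeq lists 8 H3 pseudogenes whose older symbols derive from the H3.3 genes (H3P6, H3P12, H3P16, H3P36, H3P37, H3P38, H3P41 and H3P44). Within 1 kb of them, 1 had a control peak and 0 had a siRNA peak. The share of all pseudogenes with a peak that near was not computed, so these counts show nothing particular to the 8. The 1 peak lay in H3P37 on chromosome 14 (23295128 to 23295408), where the deposited −log10 q was 15.9 and the fold 4.47. Reads that align equally well to a pseudogene and to H3-3A or H3-3B could be placed at either, and their handling by the aligner was not tested.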
